A study of Mus musculus with 27 samples.

Results

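The cell cycle and DNA replication genes described here were 58 genes chosen by symbol: 26 genes of mitosis and its control, 7 regulators of entry into the cycle and 25 genes of DNA replication. All 58 were found in both raw count tables, among 22855 genes, and all 58 passed the filter on low counts. RNA-seq was made from C57Bl/6 mice of 5 ages, the youngest 1 day after birth, then 4 and 14 weeks, and in the older adult 1 year and 18 months, with no other treatment or allele. There were 12 libraries of PDGFRα+ cells, sorted by flow cytometry from digested ventricles and called cardiac fibroblasts, with 3 libraries each at postnatal day 1 and 4 weeks and 2 libraries each at 14 weeks, 1 year and 18 months. There were 15 libraries of whole heart, 3 at each age. Which mouse gave which library is not in the labels, so the p-values below measure the spread between libraries.

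Total counts ran from 54615898 to 76758831 in fibroblast libraries and from 46091271 to 67984404 in whole heart libraries. The 7 fibroblast markers summed to between 17670 and 35321 CPM (counts scaled to a library of common size) in fibroblast libraries and between 846 and 1683 in whole heart, and the 8 cardiomyocyte markers summed to between 13.8 and 750 CPM in fibroblast libraries and at least 44058 in whole heart, none of either list being at 0 throughout a group. Within the fibroblast libraries the cardiomyocyte sum was 662 to 750 CPM at postnatal day 1 and at most 153 later, and the leukocyte marker sum was 173 to 305 CPM at 4 weeks against 71.0 to 137 at postnatal day 1. Their endothelial marker sum was 387 to 571 CPM at postnatal day 1, 518 to 1641 at 4 weeks and 1147 to 1362 at 14 weeks. In whole heart that sum was 642 to 957, 1182 to 1377 and 795 to 865 CPM, so at 14 weeks it was higher in fibroblast libraries. At 1 year and 18 months it was 475 to 623 and 290 to 1209 CPM in fibroblast libraries. The part of these sums in the results was not tested. Among whole heart libraries, replicate 3 at 18 months stood apart, with the fewest genes holding 10 or more counts (13574) and 13 of the 58 cell cycle genes at 0. The labels give no sex, but every library at 14 weeks and 1 year had at most 0.641 CPM of Xist and every library at 18 months had at most 0.454 CPM of Ddx3y, whereas every library at postnatal day 1 and 4 weeks held both transcripts. Age and sex makeup therefore cannot be told apart from 4 to 14 weeks or from 14 weeks to 18 months.

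A dividing cell first licenses its replication origins, loading the MCM helicase with the help of Cdc6 and Cdt1, and then copies its DNA with polymerases, their sliding clamp Pcna and nucleotides made by ribonucleotide reductase and thymidylate synthase. E2F factors and cyclin E open this phase, and their target genes are held down in resting cells by the retinoblastoma family. Genes of mitosis come on later, under Foxm1, Mybl2 and the MuvB complex, and encode the Cdk1 and cyclin B kinase, the spindle motors, the kinetochore and the checkpoint. MCM proteins are made in excess and are stable, and Pcna also works in DNA repair. These are properties of the proteins, which were not measured here. Cardiac fibroblasts and cardiomyocytes of mice divide around birth and rarely in the adult. In bulk libraries fewer cycling cells and less RNA per cycling cell cannot be told apart.

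In fibroblasts the mitotic genes stood lower at each early step. The sum of the replication genes stood lower after the first, and its libraries then overlapped between 4 and 14 weeks. Its mean was 228 CPM at 4 weeks, 201 CPM at 14 weeks, 189 CPM at 1 year and 212 CPM at 18 months. The summed level of the 26 mitotic genes was 772, 1213 and 846 CPM in the 3 libraries at postnatal day 1, 250, 178 and 341 CPM at 4 weeks, 54.8 and 41.3 CPM at 14 weeks, 38.4 and 29.3 CPM at 1 year and 38.2 and 28.9 CPM at 18 months. The summed level of the 25 replication genes was 583, 529 and 464 CPM at postnatal day 1, 191, 219 and 274 CPM at 4 weeks, 201 and 201 CPM at 14 weeks, 196 and 182 CPM at 1 year and 210 and 214 CPM at 18 months. Ages did not overlap for the mitotic sum up to 14 weeks, while for the replication sum the 4-week libraries spanned the 14-week ones. A few abundant genes weigh heavily in the replication sum. At 14 weeks Pcna, Mcm4, Mcm6 and Rrm1 were at 43.6, 22.0, 27.7 and 22.7 CPM in replicate 4. In replicate 6 they were at 39.2, 27.1, 24.5 and 23.9 CPM. At 4 weeks the mitotic sum stood at 27.2% and the replication sum at 43.4% of the postnatal day 1 mean. At 14 weeks these shares were 5.09% and 38.3%.

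The ratio of the mitotic to the replication sum in fibroblasts was 1.81 ± 0.486 (SD, n = 3) at postnatal day 1 and 1.12 ± 0.269 (SD, n = 3) at 4 weeks. It was 0.239 at 14 weeks, 0.178 at 1 year and 0.158 at 18 months, each the mean of 2 libraries. Every adult fibroblast library, between 0.135 and 0.272, was below every 4-week library, between 0.814 and 1.31. These ratios are descriptions and were not tested. The 7 regulators summed to 100 ± 7.52 CPM (SD, n = 3) at postnatal day 1, 28.8 ± 2.84 CPM (SD, n = 3) at 4 weeks and 11.01 CPM at 14 weeks.

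**Figure D1:**
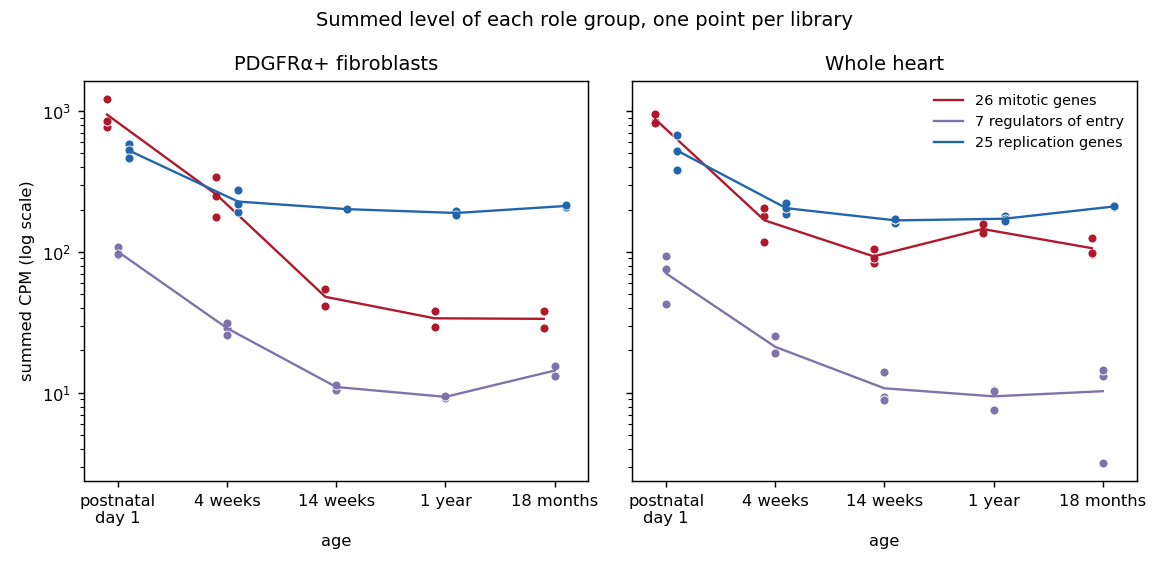
Summed level of the 26 mitotic genes, the 7 regulators of entry and the 25 replication genes, in CPM on a log scale, against age, in fibroblasts (left) and whole heart (right). Each point is 1 library and lines join group means. In fibroblasts the mitotic sum goes from 944 CPM at postnatal day 1 to 48.0 CPM at 14 weeks while the replication sum lies between 189 and 228 CPM on average from 4 weeks on.

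Gene by gene the roles overlapped. At 14 weeks 25 of the 26 mitotic genes stood under 20% of their postnatal day 1 mean in fibroblasts, with a median of 5.17% and a range from 1.04% (Cdk1) to 32.5% (Aurka). Of the 25 replication genes 10 stood under 20% and 6 over 50%, with a median of 30.2% and a range from 0.751% (Tk1) to 95.0% (Pcna). Tk1 thus stood below every mitotic gene on this measure. Levels per kilobase of exon show the same change of order. At postnatal day 1 the highest levels of fibroblasts were those of Ccnb2 (19.6 CPM per kilobase), Pcna (18.2), Mki67 (17.9) and Mcm4 (15.2), and at 14 weeks those of Pcna (17.3), Mcm4 (6.85), Mcm6 (5.59) and Mcm3 (3.85).

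The promoters of both groups also differ in letters. The motifs counted include ones already known from cell cycle genes, so this difference is not separate support for the contrast in levels. RefSeq start sites on GRCm38.p6 gave a promoter of 250 bases before to 50 after the start for 47 of the 58 genes. Counts are of genes, and a gene with more than 1 start counted if any of its promoters held the motif. The cell cycle genes homology region (CHR; here TTTGAA or TTCGAA on either strand), a motif known from promoters bound by the MuvB complex, was found for 18 of 22 mitotic genes (81.8%), 5 of 20 replication genes (25%) and 21.7% of all 27025 genes with promoters of the same length. An E2F motif (TTTCCCGC, TTTGGCGC, TTTCGCGC or TTTGCCGC on either strand) was found for 1 of 22 mitotic genes (4.55%), 8 of 20 replication genes (40.0%) and 2.6% of all these genes. The CCAAT box (CCAAT on either strand), bound by NF-Y, was found for 77.3% of mitotic, 65% of replication and 41.1% of all these genes. Among the 5 regulators with a promoter, 2 held the CHR and 1 the E2F motif. A match is a description of letters and was not measured as binding here.

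Stretches of 170 bases are printed for 4 mitotic genes whose levels are followed below and for 4 replication genes, 2 that fell in fibroblasts (Mcm5 and Mcm6) and 2 that did not pass the test there (Cdc6 and Pola1). All 4 of these replication genes hold an E2F match, against 8 of the 20 replication genes with a promoter, so they do not stand for the group. Pcna and Rrm1, whose levels are also followed below, hold no E2F match. Each is written 5′ to 3′ along the gene's own strand, with matches to the 3 motifs in capitals. Where matches overlap, as in Mcm5 and Mcm6 where an E2F match overlaps the reverse complement of another E2F variant, the capitals form 1 run. The stretches are chr7:135716380-135716549 (minus strand) for Mki67, chr10:69352913-69353082 (minus) for Cdk1, chr4:118437344-118437513 (minus) for Cdc20, chr19:37376212-37376381 (plus) for Kif11, chr8:75109339-75109508 (plus) for Mcm5, chr1:128359706-128359875 (minus) for Mcm6, chr11:98907981-98908150 (plus) for Cdc6 and chrX:93632156-93632325 (minus) for Pola1.
Mki67: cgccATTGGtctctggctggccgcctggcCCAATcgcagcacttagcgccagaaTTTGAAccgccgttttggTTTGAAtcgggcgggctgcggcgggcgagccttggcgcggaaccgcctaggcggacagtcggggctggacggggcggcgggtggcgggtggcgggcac
Cdk1: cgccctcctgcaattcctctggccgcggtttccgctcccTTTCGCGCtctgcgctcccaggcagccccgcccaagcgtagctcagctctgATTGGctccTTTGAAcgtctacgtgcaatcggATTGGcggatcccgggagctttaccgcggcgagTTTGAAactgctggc
Cdc20: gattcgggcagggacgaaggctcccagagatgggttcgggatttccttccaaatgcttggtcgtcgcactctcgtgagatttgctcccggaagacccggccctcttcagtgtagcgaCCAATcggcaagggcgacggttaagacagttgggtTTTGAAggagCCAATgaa
Kif11: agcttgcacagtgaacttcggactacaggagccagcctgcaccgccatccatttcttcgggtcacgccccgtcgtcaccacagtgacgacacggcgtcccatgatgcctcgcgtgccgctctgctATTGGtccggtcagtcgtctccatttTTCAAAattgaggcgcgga
Mcm5: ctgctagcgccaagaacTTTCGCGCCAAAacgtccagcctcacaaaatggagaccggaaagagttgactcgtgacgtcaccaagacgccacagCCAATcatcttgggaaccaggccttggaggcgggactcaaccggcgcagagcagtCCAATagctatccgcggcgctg
Mcm6: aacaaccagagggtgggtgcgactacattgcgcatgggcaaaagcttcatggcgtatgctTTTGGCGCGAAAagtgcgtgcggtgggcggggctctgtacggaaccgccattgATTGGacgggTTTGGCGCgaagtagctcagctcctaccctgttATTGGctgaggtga
Cdc6: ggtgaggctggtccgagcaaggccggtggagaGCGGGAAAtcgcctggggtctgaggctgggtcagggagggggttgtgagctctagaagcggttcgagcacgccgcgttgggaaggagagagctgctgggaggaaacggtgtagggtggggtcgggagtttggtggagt
Pola1: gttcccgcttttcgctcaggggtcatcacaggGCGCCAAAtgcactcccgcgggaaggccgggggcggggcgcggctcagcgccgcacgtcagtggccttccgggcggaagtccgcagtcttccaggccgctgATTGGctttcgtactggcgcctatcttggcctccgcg

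Whether the early fall passed a test was asked with edgeR's quasi-likelihood F test across all genes of a tissue, with adjusted p (Benjamini-Hochberg) under 0.05 as the threshold. In fibroblasts at 4 weeks against postnatal day 1, 24 of the 58 genes fell and none rose, beside 6.20% of the 18759 genes tested that fell and 9.28% that rose. All 58 had a lower mean at 4 weeks, and their median log2 fold change was -1.73, beside 0.00 over all genes tested. By role, 14 of 26 mitotic genes fell (median -1.85), 1 of 7 regulators (median -3.11) and 9 of 25 replication genes (median -1.40).

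Mki67, which encodes the proliferation antigen Ki-67, was at 142, 228 and 170 CPM in fibroblasts at postnatal day 1 and at 46.0, 18.7 and 58.2 CPM at 4 weeks. The ages did not overlap, and the log2 fold change was -2.10 ± 0.37 (SE; edgeR adjusted p = 0.0017). Top2a, the topoisomerase that untangles sister chromatids, was at 95.1, 130 and 84.7 CPM and then at 26.8, 18.9 and 43.9 CPM. It fell by 1.75 ± 0.31 on the log2 scale (edgeR adjusted p = 0.0019).

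Cdk1, the kinase that starts mitosis, was at 19.3, 39.9 and 31.7 CPM at postnatal day 1 and at 5.23, 4.49 and 7.20 CPM at 4 weeks, without overlap. Its log2 fold change was -2.39 ± 0.66 (edgeR adjusted p = 0.026). Plk1, a mitotic kinase, fell by 1.70 ± 0.44 (edgeR adjusted p = 0.019) and the spindle motor Kif11 fell by 1.56 ± 0.36 (edgeR adjusted p = 0.0097). The other called mitotic genes were Ccnb2, Bub1b, Kif20a, Kif23, Kif2c, Cenpe, Cenpa, Tpx2 and Prc1. Kif20a shares 29.3% of its exon bases with Cdc23 on the opposite strand, and the strand setting of the counts is not given in the sources used here, so its value is uncertain.

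The 12 mitotic genes that did not pass the test were Ccna2, Ccnb1, Cdc20, Aurka, Aurkb, Bub1, Cenpf, Ndc80, Nuf2, Birc5, Ttk and Anln. Their log2 fold changes ran from -3.07 ± 1.08 for Ccnb1, the cyclin that pairs with Cdk1, to -0.86 ± 0.75 for Aurka, a spindle pole kinase. Ccnb1 was at 11.9, 21.4 and 13.7 CPM at postnatal day 1 and at 0.200, 1.05 and 4.16 CPM at 4 weeks, where the libraries differed widely among themselves. Ccna2 (cyclin A) gave -1.86 ± 0.61, Aurkb (the kinase of the chromosomal passenger complex) -2.69 ± 1.03 and Birc5 (survivin, of the same complex) -2.02 ± 0.77. Cdc20, which activates the anaphase-promoting complex, gave -1.33 ± 0.49.

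Among the regulators Foxm1, a transcription factor of mitotic genes, was at 36.9, 50.9 and 56.1 CPM at postnatal day 1 and at 19.8, 10.7 and 19.4 CPM at 4 weeks, and fell by 1.50 ± 0.32 (edgeR adjusted p = 0.0064). Mybl2, E2f1, E2f2, E2f8, Ccne1 and Ccne2 did not pass the test, although Ccne1 and Ccne2, the cyclins E, had the 2 lowest log2 fold changes of all 58 genes (-4.35 ± 1.59 and -4.37 ± 1.76). Ccne2 was at 10.1, 4.72 and 5.88 CPM at postnatal day 1 and at 0, 0 and 0.955 CPM at 4 weeks. Mybl2, which works with the MuvB complex, gave -3.17 ± 1.35, E2f2 -3.11 ± 1.47 and the repressor E2f8 -1.93 ± 0.97. E2f1 was at 26.1, 9.82 and 12.3 CPM and then at 6.80, 11.3 and 5.75 CPM, so its libraries overlapped.

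All 6 subunits of the MCM helicase fell in fibroblasts at this step. Mcm5 was at 35.7, 18.4 and 29.1 CPM at postnatal day 1 and at 4.94, 10.3 and 9.19 CPM at 4 weeks, and fell by 1.74 ± 0.35 (edgeR adjusted p = 0.0042). Mcm2 fell by 1.45 ± 0.38, Mcm3 by 1.40 ± 0.28, Mcm4 by 1.08 ± 0.18, Mcm6 by 0.95 ± 0.25 and Mcm7 by 1.39 ± 0.25 on the log2 scale. Cdt1, which loads the helicase, was at 16.3, 11.4 and 13.5 CPM and then at 0.966, 2.80 and 2.81 CPM, a fall of 2.61 ± 0.58 (edgeR adjusted p = 0.0081). Rrm1, the large subunit of ribonucleotide reductase, was at 61.5, 64.6 and 50.4 CPM and then at 26.8, 25.96 and 28.3 CPM, a fall of 1.09 ± 0.15 (edgeR adjusted p = 0.00025). Gins2 also passed, but 67.3% of its exon bases lie opposite Gse1, so its value is uncertain in the same way.

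The 16 replication genes that did not pass were Mcm10, Cdc6, Cdc45, Gins1, Pcna, Rrm2, Tyms, Tk1, Pola1, Pole, Prim1, Fen1, Rfc3, Rfc4, Chek1 and Gmnn. Pcna, the sliding clamp, was at 47.5, 37.3 and 46.0 CPM at postnatal day 1 and at 28.7, 37.7 and 51.1 CPM at 4 weeks. The ages overlapped, and its log2 fold change of -0.12 ± 0.21 was the smallest of the 58 in size. Tyms, thymidylate synthase, gave -0.25 ± 0.47 and Pola1, the catalytic subunit of the polymerase that starts each strand, gave -0.45 ± 0.36. Tk1, thymidine kinase, was lower in every 4-week library (0.601, 1.82 and 2.59 CPM against 10.02, 17.4 and 13.5 CPM) but had a wide error (-2.99 ± 1.01, edgeR adjusted p = 0.066). The inhibitor of Cdt1, Gmnn (-3.08 ± 1.22), the licensing factor Cdc6 (-2.23 ± 1.53), the small reductase subunit Rrm2 (-2.15 ± 0.69) and the checkpoint kinase Chek1 (-1.70 ± 1.16) did not pass either. Fen1 has 84.2% of its exon bases opposite other genes, and its value is uncertain.

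Of the 24 calls, 13 held without each of the 6 libraries in turn, those of Mki67, Top2a, Ccnb2, Bub1b, Kif11, Kif20a, Foxm1, Mcm3, Mcm4, Mcm5, Mcm7, Cdt1 and Rrm1. By DESeq2, an alternative test, 41 genes fell.

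**Figure D2:**
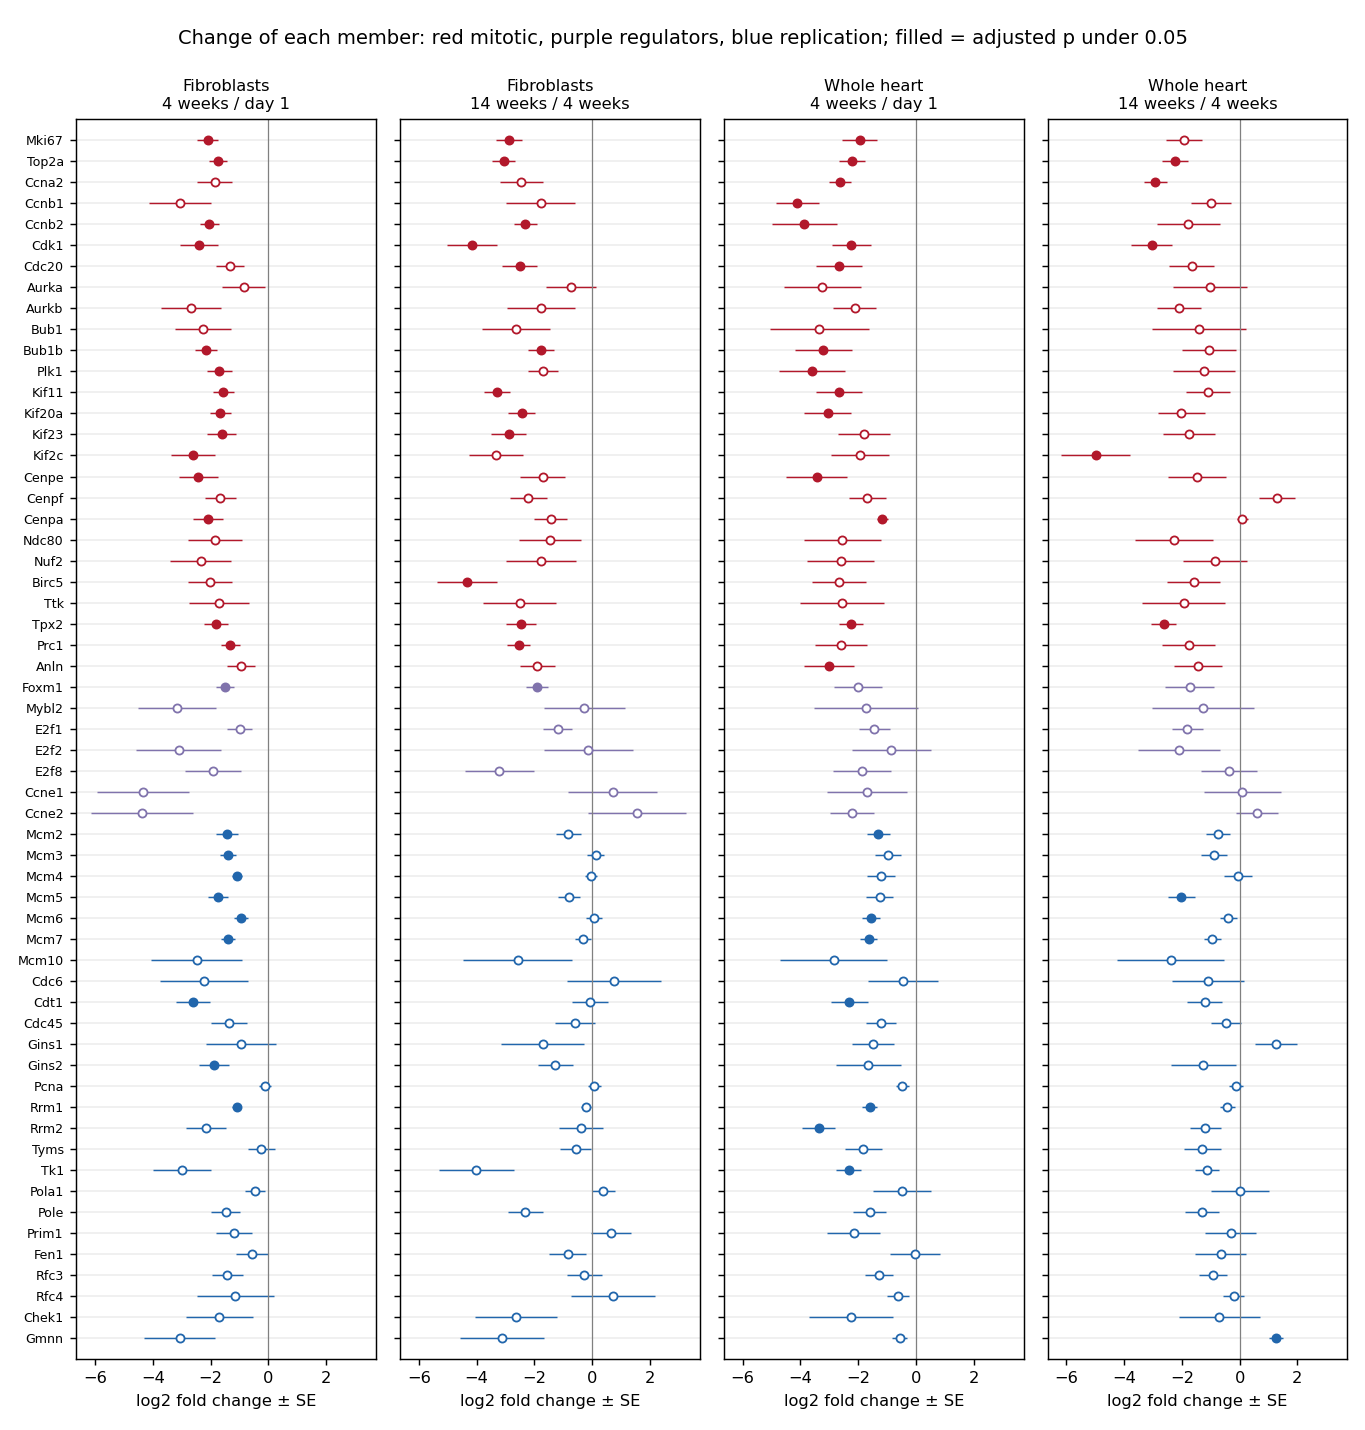
Log2 fold change with its standard error for each of the 58 genes in 4 comparisons, with mitotic genes in red, regulators in purple and replication genes in blue. Filled points passed an adjusted p under 0.05. In fibroblasts at 14 weeks against 4 weeks 12 red points and 1 purple point are filled and no blue one, and in whole heart Gmnn is the 1 filled point to the right of 0.

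From 4 to 14 weeks in fibroblasts the calls fell on mitotic genes and Foxm1. At 14 weeks against 4 weeks 13 of the 58 genes fell and none rose, beside 2.08% of all genes that fell and 1.79% that rose. They were 12 of the 26 mitotic genes (median log2 fold change -2.45), the regulator Foxm1 and 0 of the 25 replication genes (median -0.38, with 2 at an unadjusted p under 0.05). The median over all genes tested was 0.00.

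Mki67 went from 46.0, 18.7 and 58.2 CPM at 4 weeks to 5.49 and 5.61 CPM at 14 weeks, without overlap, a fall of 2.89 ± 0.45 on the log2 scale (edgeR adjusted p = 0.0043). Top2a went to 4.53 and 2.64 CPM and fell by 3.06 ± 0.39 (edgeR adjusted p = 0.0013). Kif11 was at 9.04, 9.999 and 18.6 CPM and then at 1.44 and 1.12 CPM, a fall of 3.29 ± 0.45 (edgeR adjusted p = 0.0021). On the log2 scale the estimated falls of these 3 genes were larger at this step than at the first, a difference that was not tested. In mean CPM their falls were larger at the first step.

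Cdk1 went from 5.23, 4.49 and 7.20 CPM to 0.544 and 0.0853 CPM, a fall of 4.17 ± 0.87 (edgeR adjusted p = 0.021). Birc5 had the lowest value of the mitotic genes, with 4.53, 1.63 and 6.80 CPM at 4 weeks against 0.0441 and 0.378 CPM at 14 weeks (-4.34 ± 1.03, edgeR adjusted p = 0.037). Cdc20 was at 14.8, 5.61 and 11.9 CPM and then at 1.75 and 2.02 CPM and fell by 2.51 ± 0.60 (edgeR adjusted p = 0.039). Ccnb2, Bub1b, Kif20a, Kif23, Tpx2 and Prc1 also fell. Foxm1 went from 19.8, 10.7 and 19.4 CPM to 3.66 and 5.11 CPM, a fall of 1.92 ± 0.38 (edgeR adjusted p = 0.016).

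The mitotic genes that did not pass included Plk1 (-1.71 ± 0.51), Ccna2 (-2.45 ± 0.74), Ccnb1 (-1.79 ± 1.21), Aurkb (-1.76 ± 1.17) and Aurka, whose -0.73 ± 0.86 was the highest of the 26.

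None of the 25 replication genes passed the test over this interval, and the means of 18 were below those at 4 weeks. Mcm6 was at 15.8, 28.3 and 30.5 CPM at 4 weeks and at 27.7 and 24.5 CPM at 14 weeks, within the 4-week range, with a log2 fold change of 0.07 ± 0.27. Mcm4 (-0.04 ± 0.20), Mcm3 (0.12 ± 0.30), Mcm7 (-0.31 ± 0.27), Rrm1 (-0.21 ± 0.17) and Pcna (0.08 ± 0.23) did not pass either, and the intervals of 2 SE around these 6 values lay between -0.86 (Mcm7) and 0.73 (Mcm3). Mcm5 (-0.79 ± 0.39) and Mcm2 (-0.83 ± 0.43) had lower means without passing the test. Tk1 had the lowest value of the replication genes (-4.01 ± 1.29), from 0.601, 1.82 and 2.59 CPM to 0.0588 and 0.146 CPM, but at an edgeR adjusted p of 0.13. Cdc6 had the highest (0.77 ± 1.62), and among regulators E2f8 (-3.21 ± 1.21) and Ccne2 (1.56 ± 1.70) were the extremes.

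The leukocyte marker sum of the fibroblast libraries was 173 to 305 CPM at 4 weeks and 30.2 to 40.0 CPM at 14 weeks, with 3 of the 7 markers tested called lower and Cd3e at 0 in every 4-week library. The mural marker sum was 93.4 to 163 CPM and then 352 to 439 CPM, with 1 of 7 markers called higher and none at 0 throughout. Their part in the result was not tested.

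The count of 13 depends on the pair of 14-week libraries. It was 6 without replicate 4 and 2 without replicate 6, where Top2a and Kif11 remained, the 2 calls that held without each library in turn. It was 9 in a fit of only the groups compared and 21 by DESeq2. Replicate 3 at 4 weeks, which had the highest mitotic sum, also had the highest endothelial marker sum of its age (1641 CPM, the lowest being 518 CPM), and the part of that in the result was not tested, and without this library 10 genes were called.

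**Figure D3:**
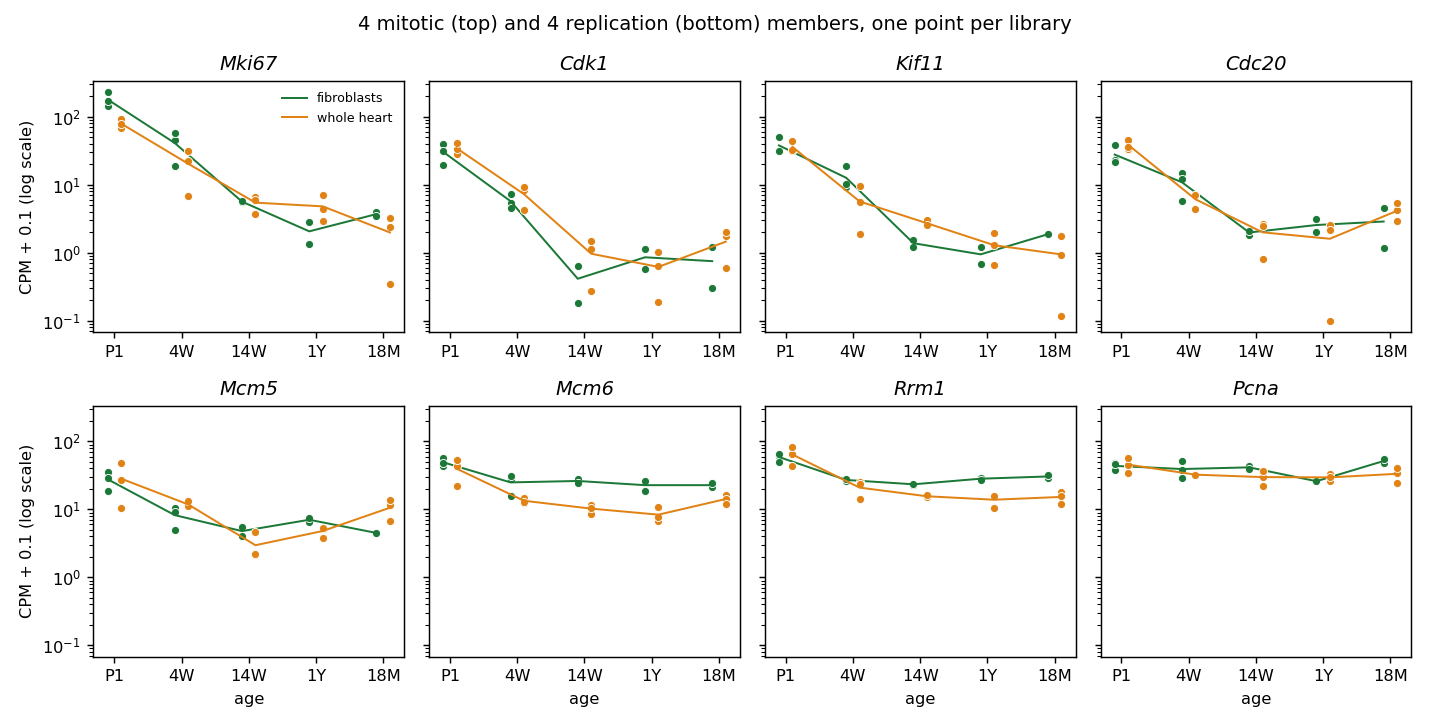
Level of 4 mitotic genes (Mki67, Cdk1, Kif11 and Cdc20, top) and 4 replication genes (Mcm5, Mcm6, Rrm1 and Pcna, bottom) by age, as CPM + 0.1 on a log scale, with 1 point for each library and lines through group means, in fibroblasts (green) and whole heart (orange). P1 is postnatal day 1, 4W and 14W are weeks, 1Y is 1 year and 18M is 18 months. In fibroblasts Mki67 goes from 142 CPM or more to 5.61 CPM or less at 14 weeks, while Pcna stays between 25.9 and 54.7 CPM in every library.

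After 14 weeks few single genes passed the test in fibroblasts, with 2 libraries a group. The mitotic sums at 1 year and 18 months, between 28.9 and 38.4 CPM, were all below both at 14 weeks, and 22 of the 26 mitotic genes had a lower mean at 1 year (median log2 fold change -0.49) and 20 of 26 at 18 months (median -0.68). Of the 25 replication genes 9 and 12 had a lower mean (medians 0.15 and 0.02). At 1 year against 14 weeks edgeR called none of the 58 genes, beside 1.78% of all genes in either direction, with 6 of the 58 at an unadjusted p under 0.05 and 3 genes lower by DESeq2. At 18 months against 14 weeks 1 gene fell and none rose, beside 0.816% of all genes that fell and 1.91% that rose. This was Bub1b, a spindle checkpoint kinase, at 3.18 and 2.34 CPM at 14 weeks and at 0.738 and 0.218 CPM at 18 months (-2.57 ± 0.50, edgeR adjusted p = 0.017). The call was lost without any 1 of 3 of the 4 libraries compared (both at 14 weeks and replicate 5 at 18 months), with adjusted p between 0.066 and 0.13. The extremes among mitotic genes did not pass, Ndc80 of the kinetochore with -4.54 ± 1.36 and Cdk1 with 1.21 ± 0.84 at 1 year, and the checkpoint kinase Ttk with -2.92 ± 1.40 and Birc5 with 2.88 ± 1.00 at 18 months. Mki67 was at 2.70 and 1.23 CPM at 1 year and at 3.86 and 3.35 CPM at 18 months. E2f2 was at 0 counts in both libraries at 18 months, where the limit that a count of 0 allows is 0.0421 CPM on average, against 0.735 and 0.402 CPM at 14 weeks. Mcm4 was at 27.7 and 29.3 CPM at 1 year and at 32.2 and 31.0 CPM at 18 months.

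In whole heart both sums were also lower at 4 weeks than at postnatal day 1. The mitotic sum was 847, 825 and 959 CPM at postnatal day 1 and 180, 118 and 206 CPM at 4 weeks, or 19.1% of the postnatal day 1 mean. The replication sum was 379, 517 and 678 CPM and then 185, 206 and 224 CPM, or 39.0%. At 4 weeks against postnatal day 1, 22 of the 58 genes fell and none rose, beside 6.10% of the 17995 genes tested that fell and 12.1% that rose. They were 15 of 26 mitotic genes (median log2 fold change -2.62), 0 of 7 regulators (median -1.72, with 3 at an unadjusted p under 0.05) and 7 of 25 replication genes (median -1.50). The leukocyte marker sum was 44.8 to 49.8 CPM at postnatal day 1 and 252 to 314 CPM at 4 weeks, and the cardiomyocyte sum was 44058 to 52931 CPM and then 68059 to 83152 CPM. Their part in the result was not tested.

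Ccnb1 had the lowest value of the mitotic genes, at 21.0, 20.7 and 23.3 CPM at postnatal day 1 and at 1.01, 0.849 and 1.87 CPM at 4 weeks (-4.10 ± 0.75, edgeR adjusted p = 0.00088). Ccna2 was at 64.8, 63.3 and 72.2 CPM and then at 10.1, 10.99 and 10.7 CPM, a fall of 2.63 ± 0.38 (edgeR adjusted p = 9.5e-05). Both changes were larger than the spread between libraries, which did not overlap. Top2a fell by 2.21 ± 0.44 (edgeR adjusted p = 0.0017), Tpx2 by 2.25 ± 0.41 (edgeR adjusted p = 0.00086), Mki67 by 1.95 ± 0.61 (edgeR adjusted p = 0.035) and Cdk1 by 2.24 ± 0.68 (edgeR adjusted p = 0.030).

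Among replication genes Rrm2 fell furthest, from 41.2, 52.5 and 57.8 CPM to 4.503, 2.59 and 7.44 CPM (-3.36 ± 0.57, edgeR adjusted p = 0.00046). Tk1 was at 23.4, 21.6 and 27.6 CPM and then at 5.18, 3.89 and 5.24 CPM, a fall of 2.32 ± 0.43 (edgeR adjusted p = 0.00095). Rrm1, Mcm2, Mcm6, Mcm7 and Cdt1 were the other 5, while Pcna (-0.47 ± 0.23) did not pass. Mcm5 did not pass (-1.25 ± 0.46), and its libraries at postnatal day 1 ranged from 10.3 to 47.3 CPM. Replicate 1 at postnatal day 1 had the lowest level of its age for 5 of the 6 MCM genes (Mcm2, Mcm3, Mcm4, Mcm5 and Mcm6), while its mitotic sum of 847 CPM lay between those of the other libraries. Without that library 18 genes fell, and the range over each library left out was 12 to 18, with 13 without replicate 2 at 4 weeks and 12 without replicate 2 or replicate 3 at postnatal day 1. Scaling by library size alone gave 41, with the median of all genes 0.51 lower on the log2 scale.

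From 4 to 14 weeks in whole heart 6 of the 58 genes fell, beside 0.850% of all genes, and 1 rose, beside 0.756%. The 5 mitotic genes were Top2a, Ccna2, Cdk1, Kif2c and Tpx2, and the replication gene was Mcm5. Ccna2 went from 10.1, 10.99 and 10.7 CPM to 2.46, 1.11 and 0.608 CPM, a fall of 2.92 ± 0.39 (edgeR adjusted p = 0.00096). Mcm5 went from 11.1, 11.1 and 13.0 CPM to 4.52, 2.02 and 2.09 CPM, a fall of 2.02 ± 0.47 (edgeR adjusted p = 0.040). Neither pair of ages overlapped. Kif2c, a microtubule depolymerase, had the lowest value of the 58 (-4.99 ± 1.19, edgeR adjusted p = 0.045). Mki67, at 31.6, 6.76 and 22.5 CPM and then at 6.58, 3.58 and 5.91 CPM, had a log2 fold change of -1.92 ± 0.62 that did not pass. The endothelial marker sum was 1182 to 1377 CPM at 4 weeks and 795 to 865 CPM at 14 weeks (1 of 8 markers called lower), the mural sum 1279 to 1760 CPM and then 1001 to 1041 CPM (1 of 7 lower) and the erythroid sum 481 to 1630 CPM and then 323 to 416 CPM (1 of 6 lower, with Epb42 at 0 in every 14-week library). Their part was not tested. Among the 7 calls, those of Ccna2 and Tpx2 held without each library in turn, the count of falls being 3 without replicate 1 at 14 weeks or replicate 2 at 4 weeks, and 2 without replicate 2 or 3 at 14 weeks or replicate 3 at 4 weeks.

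The gene that rose was Gmnn, which encodes geminin, the inhibitor of Cdt1 (chr13:24751845-24761923, minus strand, GRCm38). In whole heart it was at 30.1, 16.6 and 26.7 CPM at postnatal day 1, 12.9, 22.7 and 13.2 CPM at 4 weeks, 35.7, 43.0 and 38.7 CPM at 14 weeks, 39.6, 45.7 and 38.6 CPM at 1 year and 51.7, 46.4 and 67.7 CPM at 18 months. Every adult library was above every younger one. From 4 to 14 weeks it rose by 1.27 ± 0.25 on the log2 scale (edgeR adjusted p = 0.017), a call lost without replicate 1 or 3 at 4 weeks or replicate 2 or 3 at 14 weeks (adjusted p between 0.060 and 0.11). At 14 weeks it had the highest level per kilobase of exon of the 58 genes in whole heart (26.7 CPM per kilobase), ahead of Pcna (12.4) and Cenpa (5.26).

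In fibroblasts Gmnn had lower values at later ages, from 6.50, 5.99 and 5.73 CPM at postnatal day 1 to 0.566, 0.0699 and 1.46 CPM at 4 weeks and 0.0735 and 0.0853 CPM at 14 weeks, neither change passing the test. These values rest on few counts, 48, 6 and 128 at 4 weeks and 5 and 7 at 14 weeks. Log2 fold changes of Gmnn that use them are therefore imprecise. The difference between the tissues in the change from 4 to 14 weeks, fibroblasts minus whole heart, was -4.36 ± 1.00 on the log2 scale (edgeR adjusted p = 0.041). It was the 1 gene of the 58 called in that comparison, beside 0.286% of all genes lower in the same sense and 0.407% higher. The value stayed between -4.90 and -3.23 over the alternatives, but the call was lost in 9 of 11 fits that left out 1 library. Gmnn was lower in fibroblasts than in whole heart at every age, from -2.01 ± 0.56 at postnatal day 1 to -8.91 ± 0.97 at 14 weeks, called each time.

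Cenpa had higher values in whole heart than in fibroblasts at every adult age, and Cenpf at 14 weeks and 1 year. Cenpa, the histone that marks centromeres (chr5:30666777-30674830, plus strand, GRCm38), was at 73.2, 58.2 and 64.0 CPM at postnatal day 1 and at 24.0, 27.8 and 34.4 CPM at 4 weeks in whole heart, a fall of 1.16 ± 0.20 (edgeR adjusted p = 0.00046). It was then at 30.1, 33.6 and 28.7 CPM at 14 weeks, at 60.0, 60.9 and 40.8 CPM at 1 year and at 45.1, 63.5 and 61.9 CPM at 18 months. The rise from 14 weeks to 18 months was 0.83 ± 0.20 (edgeR adjusted p = 0.011), and that to 1 year, 0.79 ± 0.20, did not pass (edgeR adjusted p = 0.066). In fibroblasts Cenpa was at 1.37 to 3.44 CPM in every adult library, below every whole heart library.

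Cenpf, a kinetochore protein (chr1:189640606-189688086, minus strand, GRCm38), was at 20.5, 2.63 and 11.2 CPM in whole heart at 4 weeks, at 30.6, 23.7 and 29.6 CPM at 14 weeks, at 51.6, 43.9 and 83.2 CPM at 1 year and at 11.5, 1.22 and 8.39 CPM at 18 months. The 18-month libraries were all below those at 14 weeks and 1 year, and the fall from 14 weeks was 2.05 ± 0.64 (edgeR adjusted p = 0.046). That call was lost with another scaling (adjusted p = 0.053 with median-of-ratios factors and 0.062 with library size alone), with a transcript length offset (-1.24, adjusted p = 0.19), in a fit of only the groups compared (adjusted p = 0.071) and without either replicate 1, 2 or 3 at 14 weeks or replicate 2 or 3 at 18 months (adjusted p between 0.078 and 0.11).

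**Figure D4:**
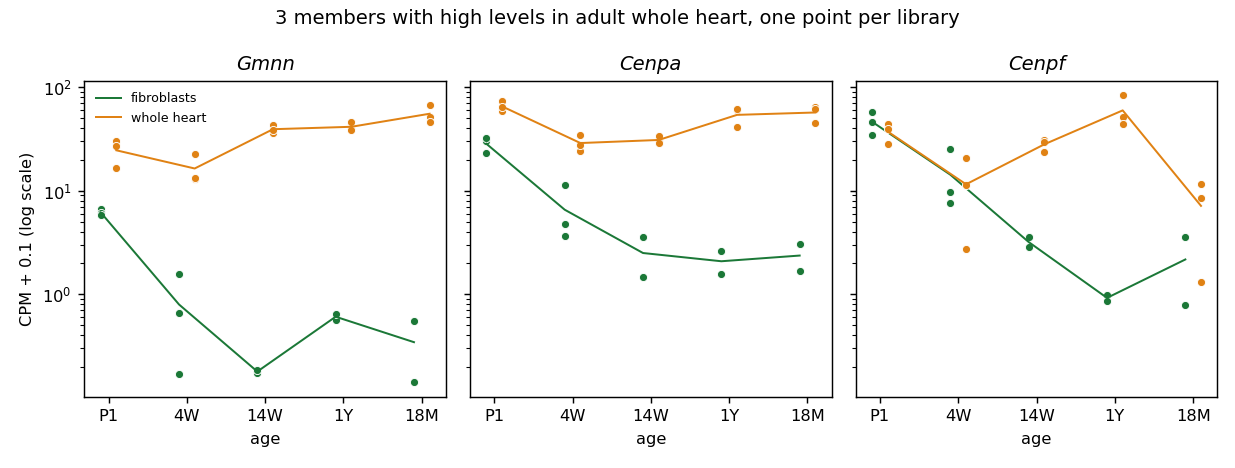
Level of Gmnn, Cenpa and Cenpf by age, as CPM + 0.1 on a log scale, with 1 point for each library and lines through group means, in fibroblasts (green) and whole heart (orange), with ages as P1 (postnatal day 1), 4W and 14W (weeks), 1Y (1 year) and 18M (18 months). In every adult whole heart library Gmnn lies between 35.7 and 67.7 CPM, and in adult fibroblasts it is at most 0.545 CPM.

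The adult ratio of whole heart depended on these 3 genes. With all genes the ratio of the mitotic to the replication sum was 1.75 ± 0.431 (SD, n = 3) in the newborn. It was 0.823 ± 0.217 by 4 weeks and then 0.557 ± 0.0836 (14 weeks), 0.847 ± 0.0858 (1 year) and 0.506 ± 0.0779 (18 months). Without Gmnn, Cenpa and Cenpf, a choice made after their values were seen, it was 0.268 at 14 weeks, 0.246 at 1 year and 0.271 at 18 months, and the same sums gave 0.211, 0.164 and 0.138 in fibroblasts. The mitotic sum without them was 34.3 CPM at 14 weeks in whole heart and 42.6 CPM in fibroblasts.

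At 1 year against 14 weeks in whole heart none of the 58 genes was called by edgeR, beside 0.972% of all genes in either direction, with 3 at an unadjusted p under 0.05 and 0 by DESeq2, which gave no adjusted p for 13 of them. At 18 months against 14 weeks Ccna2, Cenpa and Mcm5 rose, beside 4.91% of all genes, and Cenpf alone fell, beside 7.86%. Mcm5 was at 4.52, 2.02 and 2.09 CPM at 14 weeks and at 6.55, 11.4 and 13.6 CPM at 18 months, a rise of 1.81 ± 0.47 (edgeR adjusted p = 0.018). Ccna2 was at 2.46, 1.11 and 0.608 CPM and then at 4.15, 3.63 and 4.95 CPM, a rise of 1.54 ± 0.38 (edgeR adjusted p = 0.015). Groups did not overlap for either gene. The count of rises went to 0 without replicate 3 at 14 weeks and to 5 without replicate 1 at 18 months, and none of the 4 calls held without each library in turn. The leukocyte marker sum was 210 to 246 CPM at 14 weeks and 368 to 476 CPM at 18 months (1 of 8 markers called higher). The erythroid sum was 323 to 416 CPM and then 781 to 1882 CPM (4 of 6 higher, with Epb42 at 0 throughout both ages), and the fibroblast sum 846 to 1007 CPM and then 1373 to 1519 CPM (3 of 7 higher). Their part was not tested.

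Whether fibroblasts and whole heart differed in these steps was tested in 1 fit of both tissues over 20650 genes. For the change from postnatal day 1 to 4 weeks none of the 58 genes was called by edgeR, beside 7.14% of all genes in either direction, with 1 at an unadjusted p under 0.05. DESeq2 called 1 gene lower. The median difference, fibroblasts minus whole heart, was 0.81 for mitotic and 0.02 for replication genes, on the log2 scale. The highest was that of Aurka (2.36 ± 1.73) and the lowest that of Ccne1 (-2.70 ± 2.10), and with such errors a missed threshold does not show that the tissues changed alike. The gene at an unadjusted p under 0.05 was Gmnn (-2.53 ± 0.79, edgeR adjusted p = 0.052).

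At a given age few of the 58 genes differed between fibroblasts and whole heart, set against the share of all genes that did. At postnatal day 1 Mcm4 was higher in fibroblasts and Cenpa and Gmnn were lower, beside 13.6% of all genes higher and 18.7% lower. At 4 weeks Mcm4 and Mcm6 were higher and Cenpa and Gmnn lower, beside 17.5% and 18.6%. At 14 weeks 5 replication genes were higher in fibroblasts (Mcm3, Mcm4, Mcm6, Mcm7 and Tyms) and 4 genes lower (Cenpa, Cenpf, Gmnn and Tk1), beside 17.1% and 17.7%. At 1 year Mcm4, Mcm6 and Rrm1 were higher and Cenpa, Cenpf, Gmnn and E2f8 lower, beside 16.7% and 15.7%. At 18 months Mcm4, Rrm1, Foxm1 and Kif2c were higher and Cenpa, Gmnn, Tk1, E2f2 and Cdc45 lower, beside 21.0% and 17.9%.

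Mcm4 was the 1 gene called higher in fibroblasts at each age. It was at 59.1, 57.6 and 47.0 CPM in fibroblasts at postnatal day 1 against 11.1, 20.7 and 31.7 CPM in whole heart (1.37 ± 0.40, edgeR adjusted p = 0.0099). At 18 months it was at 32.2 and 31.0 CPM against 9.86, 7.47 and 1.81 CPM (2.31 ± 0.44, edgeR adjusted p = 0.00014). The libraries of the tissues did not overlap at either age. The call at postnatal day 1 was lost without whole heart replicate 1 (adjusted p = 0.066) and that at 14 weeks without fibroblast replicate 6 (adjusted p = 0.067).

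Mcm6 was at 27.7 and 24.5 CPM in fibroblasts and at 8.49, 11.7 and 10.3 CPM in whole heart at 14 weeks (1.36, edgeR adjusted p = 0.0012). Tk1 was on the other side at that age, at 0.0588 and 0.146 CPM in fibroblasts against 2.89, 1.69 and 2.00 CPM (-4.38, edgeR adjusted p = 0.0012). At 18 months E2f2 was at 0 in both fibroblast libraries and at 0.730, 2.91 and 0 CPM in whole heart, at least 28.8-fold lower on average against 3 counts in each library, and was not called without either fibroblast library. Kif2c had 1 count in all in whole heart at 18 months, and was at 1.59 and 0.163 CPM in fibroblasts. The 14-week count of 5 genes higher fell to 2 with median-of-ratios factors or without fibroblast replicate 6 and rose to 13 with library size alone, which moved the median of all genes by 0.66 on the log2 scale.

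Genes of the same pathways outside the 58 were taken from lists. In fibroblasts at 4 weeks against postnatal day 1, 6.20% of all genes tested fell and 9.28% rose. Of 57 other mitotic genes tested at that step, 17 fell and none rose (median log2 fold change -1.62). Of 45 other replication genes 9 fell (median -0.81). The largest change called was that of Gtse1, a microtubule protein of the later cycle (-2.81 ± 0.79), and of Dtl, part of the ligase that removes Cdt1 (-3.45 ± 0.92). Among the highest expressed, the condensin gene Smc4 fell by 1.16 ± 0.22 and the clamp loader gene Rfc1 by 1.17 ± 0.15, while Hjurp, the Cenpa chaperone (-0.20 ± 0.17), and Mcmbp, which binds the MCM complex (-0.13 ± 0.21), did not pass. At 14 weeks against 4 weeks 5 of the 57 fell (median -1.86) and 0 of the 45 did (median -0.30), with Rfc1 rising by 0.79 ± 0.17. Of all genes tested 2.08% fell and 1.79% rose over this interval.

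Of 25 genes of G1 control, 5 fell and 2 rose at 4 weeks against postnatal day 1 in fibroblasts (median -0.21). Over all genes tested 6.20% fell and 9.28% rose, and the count of 2 rises was not above that share. Ccnd1, cyclin D1, fell by 1.31 ± 0.15 (edgeR adjusted p = 8.05e-05), as did Ccnd3, Cdk2, Cdk4 and Cdk6, and Rb1, the retinoblastoma gene, rose by 1.41 with Mycn (1.79 ± 0.46). Myc, the highest of the list with Ccnd1, gave 0.46 ± 0.16 at this step and rose by 1.64 ± 0.20 at 1 year and by 1.26 ± 0.20 at 18 months against 14 weeks.

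In whole heart at 4 weeks against postnatal day 1, 6.10% of all genes tested fell and 12.1% rose. Of 57 other mitotic genes 17 fell (median -2.49), and of 45 other replication genes 9 fell (median -1.04). Pttg1, securin, rose by 0.95 ± 0.19 (edgeR adjusted p = 0.0021) as the 1 mitotic gene against that direction, and rose again by 0.66 ± 0.19 at 18 months against 14 weeks. Hmmr, a spindle assembly gene, had the largest change called of the other mitotic genes (-3.74 ± 0.79), and Hjurp fell by 1.55 ± 0.23. The replication genes highest in whole heart, Rpa1 (0.21 ± 0.16) and Rfc1 (-0.09 ± 0.23), did not pass. Of the G1 list 5 fell and 2 rose, beside the same shares of all genes, with Myc among the falls (-2.34 ± 0.49). At 14 weeks against 4 weeks Racgap1 alone fell (-1.93 ± 0.41), beside 0.850% of all genes.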

How the data were processed

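RNA-seq of sorted fibroblasts and whole heart was used. The deposited values are raw counts per gene, which the authors made from 65-base single-end reads with STAR 2.5.3a (GeneCounts) on mm10; the annotation and strand setting are not given in the sources used here. From these counts, edgeR 4.0.16 (R 4.3.3) was run with filterByExpr, TMM factors and the quasi-likelihood F test over all genes of a tissue (factor age), and over both tissues for comparisons between them, with Benjamini-Hochberg adjustment at 0.05. Levels are CPM on TMM-scaled libraries, and lengths are exon unions of GENCODE M21. DESeq2 1.42.0, other scalings, no filter, a length offset, single-library omissions and a replicate block were alternatives. The 58 genes and all lists were chosen with earlier results of these data known. Genes named are 30 chosen by role, the extremes of each role, exceptions to the main direction, and the highest and most changed of other lists. No library was left out.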

Additional observations from a re-analysis of the deposited data

Results flagged for a closer look

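One result was picked out because the 2 tissues differed in the same contrast by a test of the difference itself. Gmnn changed from 4 to 14 weeks by -4.36 ± 1.00 (SE) on the log2 scale in fibroblasts relative to whole heart (edgeR adjusted p = 0.041). All 3 whole heart libraries at 14 weeks were above those at 4 weeks, and both fibroblast libraries at 14 weeks were below 2 of the 3 at 4 weeks. The fibroblast side rests on 48, 6 and 128 counts at 4 weeks and 5 and 7 at 14 weeks. The call was lost in a fit of only the groups compared and in most fits that left out 1 library.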

How the results depend on the processing

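The counts of the 58 genes called moved by more than 1.5 times under several alternatives, and the cause was not tested. By DESeq2 the count of lower genes was 41 and 21 for fibroblasts at 4 and 14 weeks, 3 and 2 for the 1-year and 18-month libraries, 1 for the tissue difference from postnatal day 1 to 4 weeks and 2 for that from 4 to 14 weeks. Library size alone gave 41 lower genes for whole heart at 4 weeks, and 10 and 13 genes higher in fibroblasts than in whole heart at 4 and 14 weeks, with the median of all genes moved by -0.51 to 0.66. A fit of only the groups compared gave 1 and 0 lower genes for fibroblasts at 1 year and 18 months, 36 and 3 for whole heart at 4 and 14 weeks, 0 for the tissue difference from 4 to 14 weeks, and 4, 5 and 2 genes higher in fibroblasts at postnatal day 1, 4 weeks and 18 months. Median-of-ratios factors, no filter and a transcript length offset each gave 1 gene for the tissue difference from postnatal day 1 to 4 weeks; the first and last gave 2 genes higher in fibroblasts at 14 weeks, and the length offset 3 at postnatal day 1 and -0.079 for Rrm1 between the tissues at 18 months, the 1 reversal among 4216 alternatives of 351 gene values, of which 235 lost and 115 gained the threshold.

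With the replicate block the counts were 29 for fibroblasts at 4 weeks, 36, 2 and 0 for whole heart at 4 weeks, 14 weeks and 18 months, and 4 and 6 genes higher in fibroblasts at postnatal day 1 and 4 weeks. Samples sharing a number did not deviate together, with correlations of 0.003 to 0.013 between fibroblast ages, -0.056 to 0.008 between heart ages and -0.034 to 0.017 between tissues, and no block was possible for the fibroblast comparisons that involve 14 weeks, whose 2 ages share fewer than 2 numbers.

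Without 1 library at a time the counts ranged from 16 to 26 for fibroblasts at 4 weeks, 2 to 13 at 14 weeks and 0 to 2 at 18 months, and from 12 to 18 for whole heart at 4 weeks, 2 to 4 at 14 weeks and 0 to 5 at 18 months. For the tissue differences they ranged from 0 to 3 and from 0 to 1, and for genes higher in fibroblasts from 0 to 1, 1 to 4, 2 to 4, 3 to 4 and 3 to 8 in order of age. Without fibroblast replicate 3 at 4 weeks the first tissue difference gave 3 genes.

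The log2 ratio of mitotic to replication genes, taken from median log2 CPM in place of sums, was 0.65 in fibroblasts at 4 weeks and -0.95, -1.03 and -1.11 at the later ages, and 1.17 in whole heart at postnatal day 1 and -1.16, -1.46 and -1.35 at 14 weeks, 1 year and 18 months. Without Gmnn, Cenpa and Cenpf it was -1.94, -2.03 and -1.94 in whole heart at those ages. Groups of 2 libraries limit what the adult fibroblast tests can show.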
